A study of Mus musculus with 5 samples.

Results

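H3K27ac peaks at the promoters of long intergenic noncoding RNAs (lincRNAs) were examined in large intestinal Treg cells with and without Setd2. A peak of the deposited count table was taken as a lincRNA promoter peak when it was narrower than 3000 bp, overlapped a window of 1 kb either side of a transcription start site (TSS) of a GENCODE M21 gene of the type lincRNA, and lay more than 5 kb outside every protein-coding gene. The rule used position and width, not signal, and it found 767 of 124158 peaks. They were nearest to TSSs of 619 lincRNA genes, of 5854 that the annotation holds. Of these genes, 499 had 1 such peak and 120 had several.

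H3K27ac was measured by CUT&Tag, in which an antibody tethers a Tn5 transposase to the modified histone and the transposase cuts adapters into the DNA around it. Treg cells were isolated by flow cytometry as CD3+CD4+YFP+ cells of the large intestine, and the donors were C57BL/6 littermates at 2 weeks of age, with females and males pooled. Ctrl mice carried Foxp3Cre-YFP and 1 floxed Setd2 allele (Foxp3Cre-YFP Setd2 f/+, called WT in the sample titles), and KO mice carried Foxp3Cre-YFP and a pair of floxed alleles (Foxp3Cre-YFP Setd2 f/f). Both genotypes therefore carried the Cre, which is driven by Foxp3 and acts in Treg cells, and neither was a mouse free of floxed alleles. Each genotype had 2 libraries of 60000 cells, and each library pooled cells of 3 to 5 mice. An IgG library belonged to the series and was not analysed here.

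LincRNAs are RNA polymerase II transcripts that do not code for protein and lie between protein-coding genes. Their promoters are marked by H3K27ac when active, as promoters of protein-coding genes are, but such loci often also act as enhancers of a neighbouring gene, and H3K27ac marks both. Setd2 places H3K36me3 over the bodies of genes during transcription by RNA polymerase II.

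The sequences of 6 lincRNA promoter peaks are shown because they are the 3 with the highest H3K27ac (Gm6410, Gm49625, D730003I15Rik) and the 3 with the smallest unadjusted p in KO against Ctrl among those whose genotypes did not overlap (D930016D06Rik, Gm45054, Gm35572). Each is the 300 bp at the peak centre, 5′ to 3′ on the plus strand of GRCm38 (mm10). Capitals mark matches on either strand to the GC box GGGCGG, to CCAAT and to TATAAA. The letters of AP-1 (TGANTCA), ETS (CCGGAAG), RUNX (TGTGGTT) and CRE (TGACGTCA) motifs were also searched and did not occur in these windows.
Gm6410, chr8:4677915-4678214: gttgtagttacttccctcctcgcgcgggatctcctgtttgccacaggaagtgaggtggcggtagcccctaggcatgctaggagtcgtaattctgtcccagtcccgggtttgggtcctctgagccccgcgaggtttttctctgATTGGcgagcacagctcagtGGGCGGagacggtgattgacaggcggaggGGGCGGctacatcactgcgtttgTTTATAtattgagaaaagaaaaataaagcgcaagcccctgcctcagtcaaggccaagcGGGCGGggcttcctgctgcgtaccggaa
Gm49625, chr16:91465625-91465924: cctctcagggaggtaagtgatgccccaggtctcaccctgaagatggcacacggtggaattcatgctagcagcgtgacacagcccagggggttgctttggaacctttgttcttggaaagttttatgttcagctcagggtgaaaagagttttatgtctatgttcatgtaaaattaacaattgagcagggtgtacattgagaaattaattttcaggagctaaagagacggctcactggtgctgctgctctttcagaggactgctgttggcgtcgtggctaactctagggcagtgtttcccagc
D730003I15Rik, chr1:191224556-191224855: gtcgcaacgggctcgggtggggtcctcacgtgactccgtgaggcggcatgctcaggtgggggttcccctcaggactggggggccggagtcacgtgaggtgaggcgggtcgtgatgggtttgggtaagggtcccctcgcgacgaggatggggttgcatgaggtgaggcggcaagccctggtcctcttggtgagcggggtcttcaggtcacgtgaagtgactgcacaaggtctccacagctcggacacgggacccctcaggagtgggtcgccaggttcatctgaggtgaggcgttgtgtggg
D930016D06Rik, chr5:104540807-104541106: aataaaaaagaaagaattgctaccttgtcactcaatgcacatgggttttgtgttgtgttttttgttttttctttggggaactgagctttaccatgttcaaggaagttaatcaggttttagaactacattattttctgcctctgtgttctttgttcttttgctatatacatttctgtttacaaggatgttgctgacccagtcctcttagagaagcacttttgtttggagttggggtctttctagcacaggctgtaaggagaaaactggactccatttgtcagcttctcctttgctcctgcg
Gm45054, chr7:64039908-64040207: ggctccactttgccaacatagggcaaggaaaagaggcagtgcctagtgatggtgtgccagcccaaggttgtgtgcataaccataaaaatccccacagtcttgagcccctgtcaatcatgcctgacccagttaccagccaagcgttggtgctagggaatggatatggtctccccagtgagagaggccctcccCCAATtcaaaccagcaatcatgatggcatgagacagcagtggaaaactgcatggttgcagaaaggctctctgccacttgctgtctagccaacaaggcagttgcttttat
Gm35572, chr8:71779849-71780148: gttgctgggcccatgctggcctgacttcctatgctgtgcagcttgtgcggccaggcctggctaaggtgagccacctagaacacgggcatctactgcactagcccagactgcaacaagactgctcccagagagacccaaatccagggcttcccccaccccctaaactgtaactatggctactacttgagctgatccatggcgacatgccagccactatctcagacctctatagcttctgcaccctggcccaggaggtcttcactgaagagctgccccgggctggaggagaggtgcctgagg
The Gm6410 window held 3 GC boxes, 1 CCAAT and 1 TATAAA, and the Gm45054 window held 1 CCAAT. The other 4 windows held none of these letters. A match is a description of the sequence and not a measured binding site.

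Of the 767 peaks, 304 (39.6%) covered the TSS itself. The signed distance of the peak centre from the nearest lincRNA TSS had quartiles at -462 and 541.5 bp, where positive values are in the direction of transcription. Its median was 8 bp because centres lay on both sides, downstream of the TSS in 387 peaks and upstream in 380. By centre, 308 peaks lay upstream of the lincRNA gene, 309 in an intron, 139 in an exon and 11 downstream. In 50 peaks, TSSs on both strands lay in the peak or within 1 kb of its ends, counted over all gene types. In 55 the same span held a TSS of another gene type, neither lincRNA nor protein-coding. The nearest protein-coding gene lay at a median of 41.98 kb and at most 1291 kb away. Peaks that covered the TSS were wider (median 997 bp against 442 bp) and had a higher median H3K27ac density, 9.77 against 7.41 CPM (counts per 1000000 of the TMM-scaled library size) per kb, than peaks that only reached its window.

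LincRNA promoter peaks lay between promoters of protein-coding genes and other intergenic peaks in their base composition. The comparison sets were 20021 peaks within 1 kb of a protein-coding TSS and 28448 intergenic peaks away from any lincRNA TSS, each under the same width limit. The median ratio of observed to expected CpG in the 300 bp at the peak centre was 0.227 in lincRNA promoter peaks, 0.342 in protein-coding promoter peaks and 0.152 in other intergenic peaks. The ratio exceeded 0.6, as in CpG islands, in 72 lincRNA promoter peaks (9.39%), against 30.2% and 1.67% in these sets. The 72 peaks had a median density of 11.2 CPM per kb, and the remaining 695 had 7.92. The 72 were also wider (median 1100 bp against 534 bp), and the part of width in this difference was not tested. In each library the median density was higher in the CpG-rich peaks. The margin was widest in Ctrl 1 (12.5 against 8.28) and narrowest in Ctrl 2 (9.54 against 7.46).

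**Figure D1:**
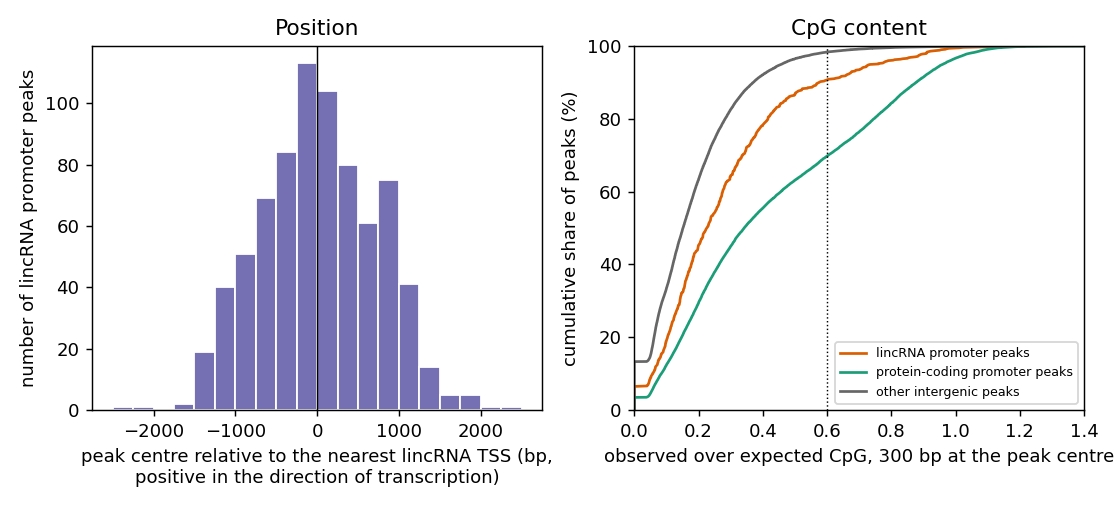
Left, number of lincRNA promoter peaks by the signed distance of the peak centre from the nearest lincRNA TSS in bp. Right, cumulative share of peaks in percent by the observed over expected CpG ratio for 3 sets of peaks, where the dotted line at 0.6 leaves 9.39% of lincRNA promoter peaks, 30.2% of protein-coding promoter peaks and 1.67% of other intergenic peaks to its right.

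The motif content followed a similar order for the GC box, the binding motif of Sp and Klf factors. It occurred in 11.2% of lincRNA promoter windows, 25.3% of protein-coding promoter windows, 4.20% of other intergenic windows and 8.02% of all peaks. The ETS letters, a motif of promoters and of lymphoid genes, were in 2.87%, 5.97%, 1.47% and 2.20% in the same order. The AP-1 letters, bound by Fos and Jun dimers, were in 10.6%, 6.92%, 10.9% and 9.39%, so lincRNA promoter peaks stood near other intergenic peaks here. The RUNX letters were in 4.95%, 5.43%, 7.84% and 7.42%, which placed them near protein-coding promoters. The CRE letters were rare, at 0.782%, 0.844%, 0.264% and 0.343%. CCAAT was in 30.1%, 28.7%, 35.6% and 31.4%, and TATAAA was in 13.7%, 9.39%, 15.9% and 14.6%. These shares are descriptions, since the windows differ in base composition.

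The libraries held from 2395002 (Ctrl 1) to 4712473 (KO 2) counts in peaks. H3K27ac at the promoters of the Treg and T cell genes Foxp3, Il2ra, Ikzf2, Ctla4, Cd3e and Cd4 summed to 784 and 896 CPM in Ctrl and to 892 and 1116 CPM in KO. Of 12 markers of other cells, 9 had no peak at their promoter, among them Ms4a1, Cd8a, Itgam, Csf1r, Lyz2, Vil1, Cdx2 and Col1a1, and Kit and Epcam stayed at or under 5.59 CPM. The summed level of the list, 381 and 571 CPM in Ctrl and 477 and 715 CPM in KO, came mainly from Pecam1, a marker of endothelium that T cells also express. Pecam1 had 371 and 568 CPM in Ctrl and 468 and 710 CPM in KO over 7 peaks, above Foxp3 in each library. Whether endothelial cells contributed was not tested. The main promoter peak of Setd2 was at 26.2 and 25 CPM in Ctrl and 27.2 and 33.3 CPM in KO. Of the weaker peaks within 1 kb of a Setd2 TSS, that at chr9:110594639-110594975 had 3.2 and 3.3 CPM in Ctrl and 0.7 and 0.7 CPM in KO. The rest overlapped between genotypes. A promoter peak does not test whether the floxed part was deleted.

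The density of H3K27ac at lincRNA promoter peaks was close to that of narrow protein-coding promoter peaks in some libraries and lower in others. Protein-coding promoter peaks of 3000 bp or wider are not part of this comparison. The median density was 8.93 and 7.72 CPM per kb in Ctrl and 9.96 and 7.41 CPM per kb in KO. Protein-coding promoter peaks had medians of 9.85 and 10.2 in Ctrl and 9.69 and 9.36 in KO, and other intergenic peaks 6.59 and 5.09 in Ctrl and 9.27 and 4.48 in KO. The median of lincRNA promoter peaks was thus above that of other intergenic peaks in each of the 4 libraries, and below that of protein-coding promoters in each except KO 1. The ratio to protein-coding promoters was 0.871 ± 0.122 and the ratio to other intergenic peaks 1.4 ± 0.249 (SD over the 4 libraries).

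**Figure D2:**
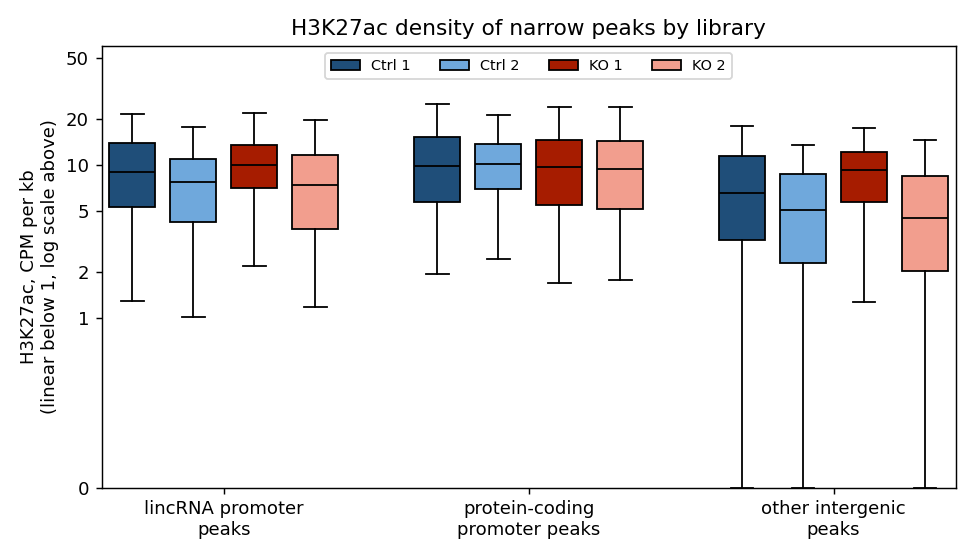
H3K27ac density in CPM per kb (linear below 1 and log scale above) of lincRNA promoter peaks, protein-coding promoter peaks and other intergenic peaks in the 4 libraries. Boxes span the quartiles with the median as a line and whiskers reach the 5th and 95th percentiles of the peaks. The lincRNA medians lie between 7.41 and 9.96.

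In replicate 1 of each genotype the density of lincRNA promoter peaks and of other intergenic peaks was higher than in replicate 2. Of all counts, 0.716% fell in lincRNA promoter peaks in Ctrl 1 (95% Clopper-Pearson interval 0.705 to 0.726) and 0.60% in Ctrl 2 (0.592 to 0.607). The share of KO 1 was 0.728% (0.718 to 0.738), and that of KO 2 was 0.625% (0.618 to 0.632). The intervals cover counting error only. Both shares of replicate 1 lay above both shares of replicate 2, so the genotypes overlapped. Within each replicate number the KO share was the higher, but the labels do not say that a number marks a pair. The peaks covered 0.640% of the length of all peaks. Their median width was 568 bp, between 754 bp at protein-coding promoters and 401 bp at other intergenic peaks.

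The 12 lincRNA promoter peaks with the highest mean H3K27ac lay between 1744 and 2831 bp in width and held 10.6% of all counts in the 767 peaks. Their means over the 4 libraries ran from 49.5 to 108 CPM per peak, where the median lincRNA promoter peak was at 4.50 CPM. All but the peak of B930059L03Rik covered the TSS, and 6 exceeded the CpG ratio of 0.6.

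Gm6410 (chr8:4676754-4679375, GRCm38), 46.5 kb from the zinc finger gene Zfp958, had the highest level, with 100 and 85.1 CPM in Ctrl and 132 and 115 CPM in KO. Its window holds the GC boxes shown above, and each KO library exceeded each Ctrl library. The log2 fold change in edgeR was 0.42 ± 0.27 (SE), and p was 0.998 after adjustment over all tested peaks. Gm49625 (chr16:91464388-91467161), 18.1 kb from the interferon receptor gene Ifnar1, had 72.4 and 83.0 CPM in Ctrl and 65.2 and 95.8 CPM in KO, and its genotypes overlapped. D730003I15Rik (chr1:191223449-191225962), 5.41 kb from the stress-response transcription factor gene Atf3, had 71.5 and 65.5 CPM in Ctrl and 87.2 and 57.3 CPM in KO, which also overlapped.

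Of the 12 peaks, 2 lay by genes of a list of 168 T cell genes, Gm47680 and 4833407H14Rik. Gm47680 (chr9:32611869-32614699), 21.5 kb from Ets1, which encodes a transcription factor of lymphocytes, had 49.3 and 48.2 CPM in Ctrl and 55.9 and 79.5 CPM in KO. 4833407H14Rik (chr19:53460225-53462338), 66.8 kb from Dusp5, a nuclear phosphatase of ERK, had 48.0 and 56.5 CPM in Ctrl and 69.7 and 59.4 CPM in KO. Gm13982 (chr2:117416791-117419452), 73.8 kb from Rasgrp1, which activates Ras after T cell receptor engagement, had 50.2 and 53.3 CPM in Ctrl and 59.6 and 58.9 CPM in KO. In these 3 peaks each KO library exceeded each Ctrl library. The log2 fold changes were 0.48 ± 0.30 for Gm47680, 0.30 ± 0.30 for 4833407H14Rik and 0.19 ± 0.30 for Gm13982 (SE).

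Of the other 6 peaks, 3 also did not overlap between genotypes. B930059L03Rik, by the phosphatase subunit gene Ppp2r5c, had 49.8 and 43.2 CPM in Ctrl and 63.7 and 67.8 CPM in KO. 1700096K18Rik had 45.7 and 40.2 CPM in Ctrl and 49.2 and 63.0 CPM in KO. Gm38293 had 52.9 and 53.9 CPM in Ctrl and 54.8 and 54.6 CPM in KO. The log2 fold changes were 0.50 ± 0.30, 0.39 ± 0.31 and 0.03 ± 0.30 (SE), where the last turned negative under other scalings. BC043934 (64.2 and 71.4 CPM in Ctrl, 62.2 and 67.8 CPM in KO), Gm26901 (86.9 and 45.2, 70.8 and 47.0) and C030034I22Rik (65.6 and 40.8, 52.5 and 52.7) overlapped. Of the 12, 7 had each KO library above each Ctrl library and 0 had the reverse (16.9% and 16.4% of all tested peaks). Their smallest unadjusted p was 0.0959 in edgeR. The shares of all tested peaks are not matched for level. Over all tested peaks the median log2 fold change was -0.13 in the lowest decile of mean CPM and 0.16 in the highest. In the highest decile the 51 lincRNA promoter peaks had a median of 0.08.

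**Figure D3:**
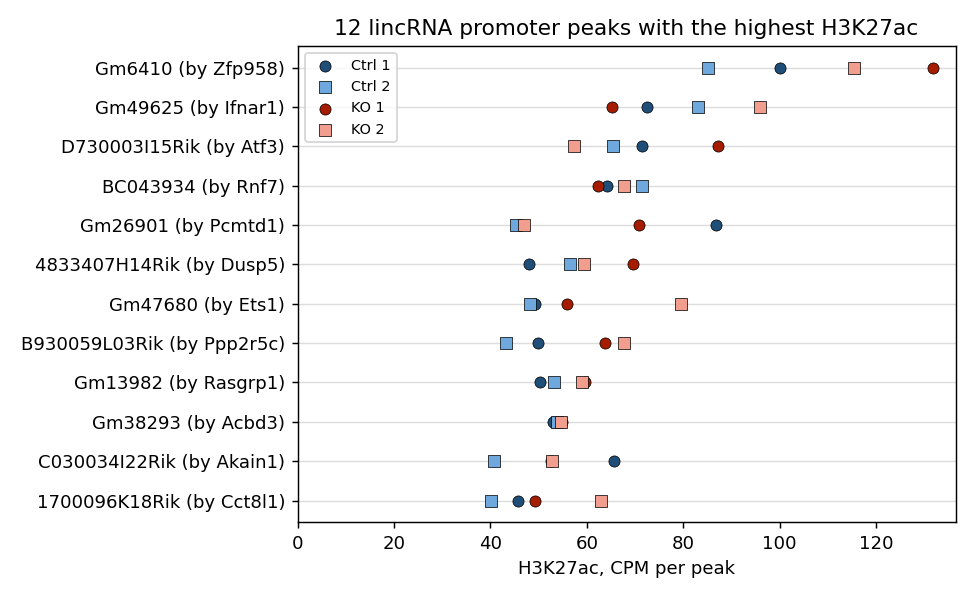
H3K27ac in CPM per peak of the 12 lincRNA promoter peaks with the highest mean, 1 point per library, with the nearest protein-coding gene in brackets. Gm6410 is highest in each library, from 85.1 to 132 CPM.

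The comparison of KO with Ctrl asked how loss of Setd2 in Treg cells changed H3K27ac at these promoters. Of the 767 peaks, 527 had at least 10 counts in at least 2 libraries and were tested with the other peaks. No lincRNA promoter peak passed an adjusted p of 0.05 in edgeR with Benjamini-Hochberg adjustment over all 74550 tested peaks (smallest adjusted p = 0.998). Of all tested peaks, 0.00134% were called higher and 0.0% lower. DESeq2 also called 0 lincRNA promoter peaks.

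At an unadjusted p under 0.05 in edgeR, 9 lincRNA promoter peaks were higher in KO (1.71%, against 1.45% of all tested peaks) and 8 were lower (1.52%, against 2.79%). DESeq2 gave 3 and 2. Leaving out Ctrl 1 gave 27 higher and 1 lower, leaving out Ctrl 2 gave 7 and 15, leaving out KO 1 gave 1 and 8, and leaving out KO 2 gave 8 and 5, so single libraries set these counts. The libraries did not overlap between genotypes and were higher in KO in 107 peaks (20.3%, against 16.9% of all tested peaks), and lower in KO in 54 (10.2%, against 16.4%). Other intergenic peaks gave 20.3% and 10.3%, so lincRNA promoter peaks did not stand apart from them in these shares.

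The log2 fold change was above 0 in 310 of the 527 peaks and below 0 in 217, with a median of 0.09 and quartiles of -0.23 and 0.47. The median was -0.01 over all tested peaks, -0.01 over protein-coding promoter peaks and 0.12 over other intergenic peaks. The single libraries did not separate by genotype. The median log2 deviation of lincRNA promoter peaks from the mean of the 4 libraries was 0.09 in Ctrl 1 and -0.16 in Ctrl 2, against 0.18 in KO 1 and -0.04 in KO 2, and the median log2 fold change turned to -0.08 without KO 1 and to -0.03 where at least 50 counts were required. It was 0.23 without Ctrl 1 and 0.02 without Ctrl 2. The replicates differed by a median of 0.57 in Ctrl and 0.48 in KO on the log2 scale, and by over 2-fold in 133 and 107 of the 527 peaks.

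**Figure D4:**
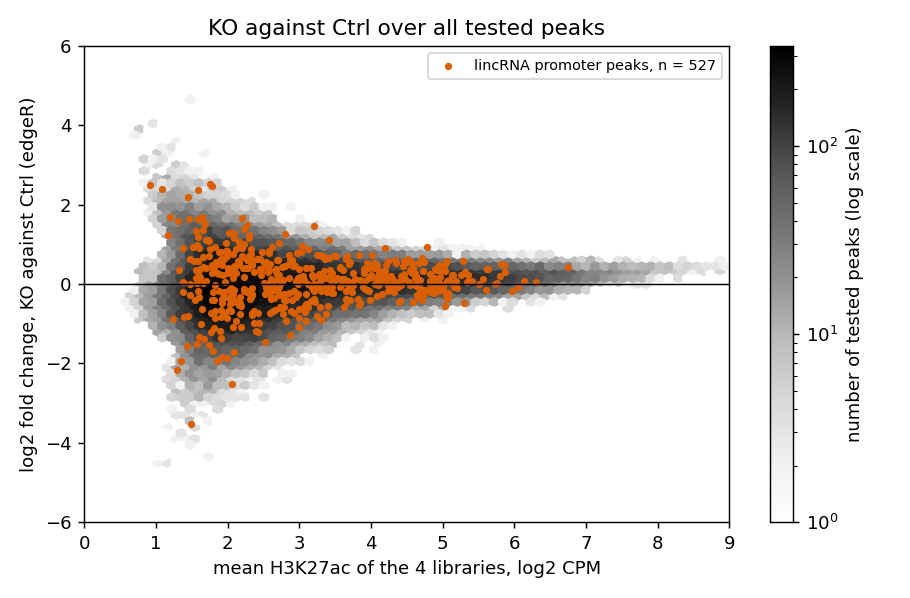
Log2 fold change of KO against Ctrl by the mean log2 CPM of the 4 libraries. Grey hexagons give the number of all tested peaks on a log scale and orange points are the 527 tested lincRNA promoter peaks, whose median log2 fold change was 0.09 and whose spread narrows with the level.

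The distance to the nearest protein-coding gene went with small differences. The median density was 9.11 CPM per kb in the 92 peaks at 5 to 10 kb, 8.22 in the 348 at 10 to 50 kb, 8.26 in the 145 at 50 to 100 kb and 7.72 in the 182 farther away. The median log2 fold changes were 0.14, 0.13, 0.04 and 0.05 in the same order. For 419 tested lincRNA promoter peaks, the nearest protein-coding gene had peaks within 1 kb of a TSS, and the CPM of these was summed. The log2 ratio of mean CPM in KO to that in Ctrl was taken for each side, after adding 0.5 CPM. Pearson's r between the ratios of peak and gene was 0.126 and Spearman's rho 0.079. Both sides of a pair share libraries and depth, and this weak relation across genes is a description only.

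Among peaks with each KO library above each Ctrl library, Gm45054 (chr7:64039607-64040507) had the smallest unadjusted p in edgeR, 0.0087. It lies in an intron of the lincRNA gene, 101 kb from Klf13, a transcription factor gene of T cells, and its window holds the CCAAT match shown above. It had 4.07 and 5.65 CPM in Ctrl and 15.3 and 12 CPM in KO, a log2 fold change of 1.45 ± 0.55 (SE). Gm35572 (chr8:71778925-71781071), by the endocytic adaptor gene Fcho1, had 22.2 and 16.1 CPM in Ctrl and 26.1 and 46.0 CPM in KO (0.94 ± 0.36). KO 2 stood highest, and without it the log2 fold change was 0.45. Gm12596 (chr4:59260872-59261655), by Ugcg, the first enzyme of glucosylceramide synthesis, had 14.0 and 11.3 CPM in Ctrl and 26.5 and 21.3 CPM in KO (0.92 ± 0.42).

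The other 2 higher peaks were at low levels. Gm33756 (chr19:59389431-59389955), by Pdzd8, had 1.81 and 0.298 CPM in Ctrl and 5.22 and 6.23 CPM in KO, which are 4 and 1 counts against 14 and 26. AC091309.5 (chr17:84026278-84026582) had 2.26 and 0 CPM in Ctrl and 7.45 and 4.07 CPM in KO, which are 5 and 0 counts against 20 and 17. Its nearest protein-coding gene is Zfp36l2, an RNA-binding protein that promotes mRNA decay, 157 kb away.

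Among peaks with each KO library below each Ctrl library, D930016D06Rik (chr5:104540489-104541423) had the smallest unadjusted p in edgeR, 0.00614. It covers the TSS and had 10.4 and 3.87 CPM in Ctrl and 1.49 and 0.958 CPM in KO, with a log2 fold change of -2.51 ± 0.92 (SE). Without Ctrl 1, the higher Ctrl library, it was -1.66. Gm31108 (chr6:143153667-143154840), by Etnk1, an ethanolamine kinase, had 9.95 and 10.7 CPM in Ctrl and 4.47 and 4.07 CPM in KO (-1.27 ± 0.61), so the replicates of each genotype were close here. Gm32090 (chr13:107611681-107612288), 390 kb from Ndufaf2, had 7.69 and 4.76 CPM in Ctrl and 2.24 and 1.20 CPM in KO (-1.86 ± 0.90).

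The promoter peak of 2900097C17Rik (chr2:156392603-156393058), the lincRNA Norad that binds Pumilio proteins, had 5.43 and 6.55 CPM in Ctrl and 0.745 and 2.40 CPM in KO (-1.84 ± 0.90), and the log2 fold change was -2.94 without KO 2 and -1.33 without KO 1. Gm30790 (chr16:76765175-76765483), by the deubiquitinase gene Usp25, had 7.24 and 3.27 CPM in Ctrl and 0 and 0.719 CPM in KO. These were 27 counts over the Ctrl libraries against 3 over the KO libraries, a ratio of 0.0903 (95% counting interval 0.0175 to 0.293). The interval covers counting error only and leaves out the spread between libraries. For each of the 10 peaks the adjusted p was 0.998 in edgeR, so none is called, and they were picked for the smallest p among many.

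**Figure D5:**
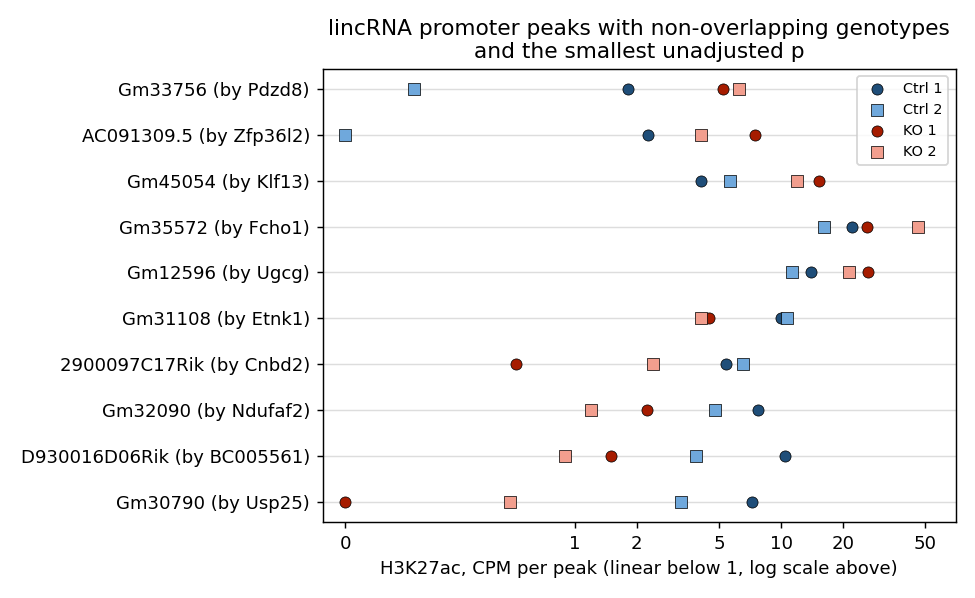
H3K27ac in CPM per peak (linear below 1 and log scale above) of the 5 higher and 5 lower lincRNA promoter peaks with the smallest unadjusted p among those whose genotypes did not overlap, 1 point per library. The lower peaks sit under 11 CPM in each library, and Gm35572 reaches 46.0 CPM in KO 2.

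LincRNAs with a known function were read from a list of 72 noncoding genes, of which 37 had the type lincRNA in the annotation. Of these, 14 had lincRNA promoter peaks, 27 in all, 10 had peaks at a TSS that the rule left out, and 13 had no peak within 1 kb of a TSS. Of the 27 peaks, 22 were tested and 0 passed an adjusted p of 0.05 in edgeR, with 2 lower in KO and 0 higher where the unadjusted p was under 0.05 (2.79% and 1.45% of all tested peaks). The log2 fold change was above 0 in 6 and below 0 in 16, with a median of -0.18 where all tested peaks had -0.01. The median of these peaks was 0.03 without Ctrl 1 and -0.45 without Ctrl 2. Non-overlapping libraries were higher in KO in 2 peaks and lower in 5, where 16.9% and 16.4% of all tested peaks were.

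Jpx and Ftx, lincRNAs of the X inactivation centre, had lincRNA promoter peaks at their TSS. Jpx, an activator of Xist, had 26.2 and 22.6 CPM in Ctrl and 19 and 17.3 CPM in KO (chrX:103492458-103494335, log2 fold change -0.43 ± 0.39). Ftx, another regulator of Xist, had 48.9 and 25.9 CPM in Ctrl and 29.1 and 29.5 CPM in KO at its first peak (chrX:103621017-103623692), and 34.8 and 20.2 CPM in Ctrl and 20.9 and 27.1 CPM in KO at its second (chrX:103615623-103618587). The genotypes overlapped at both Ftx peaks. A peak within 1 kb of a TSS of Xist was left out by the rule, since it overlapped the protein-coding gene Gm26992. It had 12.2 and 8.33 CPM in Ctrl and 2.98 and 12.7 CPM in KO, so its genotypes overlapped. The cells of each library pooled females and males, and their proportions were not given, so a difference on chromosome X and a difference in that mixture cannot be told apart.

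Pvt1, the lincRNA next to Myc, had 3 lincRNA promoter peaks. The one over an internal TSS (chr15:62098930-62099222) had 5.88 and 7.14 CPM in Ctrl and 2.61 and 1.44 CPM in KO (-1.71 ± 0.84, unadjusted p = 0.0414 and adjusted p = 0.998 in edgeR). The strongest of the 3 (chr15:62222684-62224165) had 7.24 and 19.6 CPM in Ctrl and 14.2 and 12.9 CPM in KO, which overlapped. At the first TSS of Pvt1 a peak of 3507 bp, over the width limit, had 59.3 and 58.6 CPM in Ctrl and 47.7 and 72.4 CPM in KO, where the genotypes overlapped.

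Lncpint and host genes of microRNAs were marked at several peaks. Lncpint, induced by p53, had 34.4 and 28.6 CPM in Ctrl and 30.9 and 31.9 CPM in KO at its strongest lincRNA promoter peak (chr6:31219808-31221955), which overlapped. At a lower intronic peak (chr6:31089424-31090998) it had 9.50 and 6.84 CPM in Ctrl and 10.4 and 14.4 CPM in KO (0.63 ± 0.52), without overlap. Mir155hg, the host of miR-155, which acts in T cell activation, had 13.1 and 10.4 CPM in Ctrl and 8.57 and 7.19 CPM in KO at an intronic peak (chr16:84711340-84712409, -0.58 ± 0.53). Its broad promoter peak of 3969 bp had 97.3 and 43.4 CPM in Ctrl and 65.6 and 33.3 CPM in KO, and these overlapped. Mir17hg, the host of the miR-17-92 cluster, had 8.6 and 7.14 CPM in Ctrl and 7.45 and 3.35 CPM in KO.

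Other lincRNAs of the list overlapped between genotypes at their strongest peak. Dubr had 35.3 and 19.9 CPM in Ctrl and 37.6 and 20.8 CPM in KO, where both genotypes had the higher value in replicate 1. Trp53cor1 (lincRNA-p21), next to Cdkn1a, had 6.33 and 4.46 CPM in Ctrl and 4.47 and 2.88 CPM in KO. AW112010 had 14.0 and 8.63 CPM in Ctrl and 11.2 and 10.1 CPM in KO beside a broad peak of 9347 bp. Gm14005 (Morrbid), a regulator of Bcl2l11 in short-lived leukocytes, had 17.2 and 11.3 CPM in Ctrl and 17.1 and 7.91 CPM in KO at its TSS, beside a broad peak of 9829 bp. At an intronic peak (chr2:128501238-128502568) Gm14005 had 10.4 and 9.52 CPM in Ctrl and 11.2 and 12.9 CPM in KO (0.28 ± 0.50), which did not overlap. The lowest of the 3 peaks of the listed lincRNA Mirt1 (chr19:53453230-53453590) had 5.43 and 2.98 CPM in Ctrl and 1.12 and 2.88 CPM in KO (-0.99 ± 1.04), which did not overlap either.

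The width limit left out the strongest lincRNA promoters. In all, 73 peaks met the rule on position but were 3000 bp or wider, with a median density of 15.2 CPM per kb and a median log2 fold change of 0.21. At the limit, Ftx (2965 bp) and Gm20443 (2972 bp) were inside, and Gm2885 (3007 bp) and Chaer1 (3021 bp) were outside. The strongest of the wide peaks, over 2310001H17Rik by the activation marker gene Cd69, spanned 16697 bp and had 356 and 303 CPM in Ctrl and 471 and 388 CPM in KO (adjusted p = 0.998 in edgeR). The main Malat1 peak (6310 bp) had 82.8 and 92.6 CPM in Ctrl and 82.7 and 128 CPM in KO.

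The nearest protein-coding gene was on a list of 168 genes of T cell identity and function for 52 lincRNA promoter peaks, which lay by 26 of these genes. The genes with the most peaks were Tnfaip3 (6), Klf13 (5), Id2 (4) and Myc (4). The median density was 9.29 CPM per kb, against 8.20 over all lincRNA promoter peaks. Of the 40 tested, 0 passed an adjusted p of 0.05 in edgeR and 2 had an unadjusted p under 0.05, Gm45054 by Klf13 (higher) and Pvt1 by Myc (lower), where 1.45% of all tested peaks were higher and 2.79% lower. The log2 fold change was above 0 in 28 and below 0 in 12, with a median of 0.10 where all tested peaks had -0.01. The median of these peaks was 0.34 without Ctrl 1 and -0.01 without KO 1. Non-overlapping libraries were higher in KO in 8 peaks and lower in 3, where 16.9% and 16.4% of all tested peaks were, and 20.3% and 10.2% of all lincRNA promoter peaks.

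Beside the peaks by Ets1 and Dusp5, the strongest of these lay by surface receptors and transcription factors. Gm28556 (chr1:138191456-138193336), 15.7 kb from Ptprc, the CD45 phosphatase, had 33.9 and 37.5 CPM in Ctrl and 41.0 and 47.0 CPM in KO (0.30 ± 0.32). 4930465M20Rik (chr12:107733820-107735629), 175 kb from Bcl11b, which maintains T cell identity, had 15.4 and 26.2 CPM in Ctrl and 30.6 and 32.3 CPM in KO (0.58 ± 0.36). Gm20139 (chr10:19167301-19169564), 152 kb from Tnfaip3, the NF-κB inhibitor A20, had 19.9 and 21.4 CPM in Ctrl and 25.7 and 29.5 CPM in KO (0.42 ± 0.37). In these 3 peaks each KO library exceeded each Ctrl library, and the fold changes were within 2 SE of 0. Of the 12 strongest peaks by T cell genes, 5 had each KO library above each Ctrl library and 0 had the reverse. The shares over all tested peaks were 16.9% and 16.4%, not matched for level.

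Further peaks among the 12 strongest by T cell genes overlapped between genotypes. Mirt1 (chr19:53463763-53465936), by Dusp5 and on the strand opposite to 4833407H14Rik, had 30.3 and 50.3 CPM in Ctrl and 31.3 and 52.0 CPM in KO, so it was higher in replicate 2 of both genotypes. Gm47230, by the chemokine receptor gene Cxcr5, was likewise higher in replicate 2, with 17.2 and 34.2 CPM in Ctrl and 27.2 and 44.8 CPM in KO. Gm15208 by Bcl11b (25.3 and 24.4 CPM in Ctrl, 20.5 and 29.9 CPM in KO), 4930428O21Rik by the transcriptional repressor gene Gfi1 (29.0 and 17.9, 26.1 and 25.2), 2310016D23Rik by the costimulatory receptor gene Cd28 (17.2 and 28.0, 21.2 and 25.9) and D730003K21Rik by the TGF-β receptor gene Tgfbr2 (28.0 and 13.4, 22.7 and 19.6) showed no order by genotype.

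The lincRNA genes with the most peaks were AC132455.2 and Gm19705, with 5 each. The peaks of AC132455.2 lie 26.7 to 47.7 kb from Zfp36l2, and the strongest (chr17:84139715-84142193) had 23.1 and 17.6 CPM in Ctrl and 32.0 and 32.1 CPM in KO (0.67 ± 0.37). Of the other 4 peaks of the gene, that at chr17:84135748-84136241 was also above Ctrl in both KO libraries (3.62 and 3.87 CPM in Ctrl, 4.84 and 7.43 CPM in KO, 0.72 ± 0.73). The peak at chr17:84155589-84156448 had 13.6 and 5.36 CPM in Ctrl and 8.20 and 3.35 CPM in KO, which overlapped. Whether the peaks of the gene changed together was not tested. Gm19705, by the zinc finger gene Zfp281, had 22.2 and 21.1 CPM in Ctrl and 20.1 and 22.3 CPM in KO at its strongest peak (chr1:136684091-136686258).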

How the data were processed

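The deposited table gave raw counts of reads in each merged peak, without normalization. Per the methods and the labels, the authors aligned CUT&Tag reads to mm10 with Bowtie2, used MACS2 with IgG as the control to call peaks, and joined the peak lists with bedtools. Tool versions were not given in the sources used here. Because peaks were called on the compared libraries, the peak set depends on their signal. The methods treat each pool of cells as a biological replicate, and nothing in the sources says whether libraries came from separate sorts. The p-values therefore rest on the spread between these libraries, taken over peaks of similar abundance.

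Peaks were placed on GENCODE M21 (GRCm38), and sequences were read from the RefSeq GRCm38.p6 genome with pysam 0.24.0. Coordinates are 1-based. A minimum of 10 counts in 2 libraries left 74550 peaks, which were fitted together without covariates by edgeR 4.0.16 (R 4.3.3) with TMM, the quasi-likelihood test and a Benjamini-Hochberg threshold of 0.05. The prior degrees of freedom were infinite, so a peak's spread was read from the trend with abundance alone. SEs were derived from the fold change and the F statistic. The code was tested on simulated counts.

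The named peaks were those called (none), the 12 highest by mean CPM, the 5 higher and 5 lower with the smallest p among those with non-overlapping genotypes, those of listed noncoding genes, the 12 highest by listed T cell genes, and those of the lincRNA genes with the most peaks. Fold changes were not printed for named peaks whose genotypes overlapped, nor for those with at most 5 counts over a genotype. The members, lists and rules were chosen with earlier results of these data known. Alternatives were DESeq2 1.42.0 and its size factors, total counts, loess offsets by abundance, count minimums of 1 and 50, a robust fit, halved counts (in case both mates of a pair were counted), a replicate block, leaving out each library, and other windows, widths and distances. A loess offset by GC share and the basic transcript set were chosen after seeing the data. The IgG library was not analysed here. Some of the named peaks and marker genes are not reported here.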

Additional observations from a re-analysis of the deposited data

How the results depend on the processing

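No lincRNA promoter peak passed an adjusted p of 0.05 under any setting tried, and the smallest adjusted p of a named peak with non-overlapping genotypes was 0.0941 (Gm35572 with the replicate block in edgeR). The counts at an unadjusted p under 0.05, 9 higher and 8 lower, became 3 and 2 with DESeq2, 1 and 1 where at least 50 counts were required, 4 and 1 with halved counts, and 10 and 5 with the loess offset on abundance. Leaving out 1 library gave 1 to 27 higher and 1 to 15 lower. A lone library is assumed there to vary like the other genotype. The median log2 fold change ran from -0.0793 to 0.23 over these fits and from -0.0324 to 0.151 under the other settings. With the replicate block the counts were 29 higher and 12 lower. The labels do not say that a number marks a shared sort or day, and with 2 pairs the deviations of same-numbered libraries correlated at r = 0.253 over all tested peaks and 0.200 over lincRNA promoter peaks. The fold change of Gm38293, 0.03, became -0.04 with total counts, -0.12 with the loess offset on abundance, -0.08 at 50 counts, -0.02 with halved counts, and -0.0013 when GC share was offset. No other of the 28 named peaks with non-overlapping genotypes changed sign, while 29 of the 33 named peaks whose genotypes overlapped did under at least 1 setting. The split itself largely sets this contrast, since leaving out a library can hardly reverse a sign where genotypes do not overlap. It is therefore no measure of how well the differences hold.

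The rule found 1167 peaks with a window of 2 kb, and their share of counts was 0.887%, against 0.667%. The share was 0.553% with a window of 500 bp, 1.22% with no width limit, 0.821% with no distance from protein-coding genes and 0.582% at 10 kb. In CPM per peak, the ratio was 0.699 to protein-coding promoters and 1.84 to other intergenic peaks. In windows of 500 bp the excess over other intergenic peaks was 2.87 percentage points for ETS and 11.1 for the GC box. The cause of these changes was not tested. The median peak held 12 to 17 counts in a library, which limits what 2 libraries a genotype can show.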
